A study of Mus musculus with 6 samples.

Results

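Perineurial cells of dorsal mouse skin were set against the fibroblast-like cells that entered the same sort. Perineurial cells form the perineurium, the layered sleeve around bundles of nerve fibres. They are joined by tight junctions, rest on basement membranes on both faces and separate the nerve compartment from the surrounding dermis. Dermal fibroblasts lie outside that sleeve, secrete fibrillar collagen and elastic fibres and lack such a barrier. Cells were assigned by 2 sets of 7 genes each, and all other genes were then compared between the classes.

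Droplet RNA sequencing counts the transcripts of each gene in each cell by unique molecular identifiers (UMIs). It had been applied to tdTomato+ cells sorted from back skin of *Cdh5*-CreERT2; tdTomato; *Krt14*-H2BGFP mice on a mixed C57BL/6 and CD1 background (wild type, WT). *Cdh5* drives the recombinase, so that cells are labelled if the *Cdh5* promoter was active when tamoxifen (200 µg/g) was given at postnatal day (PD) 17. All mice in the series received it. Per the study, cells with the *Krt14*-H2BGFP signal of keratinocytes were sorted out of the WT samples. WT libraries came from 2 mice in telogen, the resting stage of the hair cycle, at PD 20, and 2 in anagen, the growth stage, at PD 32, with 1 library for each mouse. A further 2 libraries came from mice in telogen at PD 25 with Alk1 KO in their title and *Alk1* flox/flox; tdTomato; *Cdh5*-CreERT2 (C57BL/6) in their description, although their genotype field reads wild type. They were grouped by title and served as libraries that the choice of members did not use. The study treats the fibroblasts in this sort as contaminants without *Cdh5*, so the fibroblast-like cells here are not a sample of all dermal fibroblasts.

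WT cells were kept if they had between 200 and 5000 genes with a UMI and a mitochondrial share below 10%. Of the 17270 kept, 4597 held no UMI of *Ptprc* (leukocytes) or *Pecam1* (endothelial cells). A cell was called perineurial if it held a UMI of at least 3 of *Klf5*, *Cldn1*, *Wnt6*, *Fzd2*, *Ntng1*, *Moxd1* and *Perp*, and fibroblast-like if it held a UMI of at least 4 of *Pdgfra*, *Dpt*, *Lum*, *Clec3b*, *Tnfaip6*, *Mmp2* and *Loxl1* and of at most 1 gene of the first set. This gave 2263 perineurial cells (531 and 807 in the telogen and 265 and 660 in the anagen libraries) and 235 fibroblast-like cells (75, 85, 42 and 33 in the same order), together 2498 of the 17270 kept WT cells and of 20941 kept cells in all 6 libraries. Perineurial cells made up 16.7, 17.2, 6.16 and 12.9% and fibroblast-like cells 2.37, 1.81, 0.977 and 0.646% of the kept cells of each library. A further 84 cells met both definitions and were left out, as were 104 cells that met the fibroblast set but held 2 genes of the perineurial set.

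The 14 defining genes and *Ptprc* and *Pecam1* chose the cells and are described here without a test. In the perineurial cells of the first telogen library, *Cldn1*, a claudin of tight junctions, was found in 96.0% of cells at 686 CPM (the gene's UMIs scaled to a common total), and it was at 0 in the 75 fibroblast-like cells of that library. *Tnfaip6*, a hyaluronan-binding protein, stood at 3692 CPM in those fibroblast-like cells and at 30.5 CPM in the perineurial ones. Just inside the perineurial threshold were 217 cells with exactly 3 defining genes, and just outside it 118 cells with 2. *Krt19*, which took no part in the choice, was at 379 CPM in the former, 179 CPM in the latter and 670.0 CPM in the 2046 cells with 4 or more. *Col1a1* was at 11109 CPM in the 26 cells with exactly 4 fibroblast genes, 8601 CPM in the 22 cells with 3, and 27856 CPM in the 209 cells with 5 or more. The 84 cells of both kinds lay between the classes for both genes, with 49.3 CPM of *Krt19* and 12341 CPM of *Col1a1*.

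The classes differed in depth. Perineurial cells had median totals of 6708, 5748, 6350 and 4346 UMIs in the 4 libraries, and fibroblast-like cells of 17239, 15776, 13376 and 11746, which was higher in every library. Mitochondrial UMIs made up 4.45 to 5.75% of the perineurial and 2.26 to 3.17% of the fibroblast-like totals, and the ranges did not overlap. A deeper cell passes a threshold of detected genes more easily. Cells with at least 2000 UMIs were therefore also thinned to that number before the choice. Of these, 416, 641, 192 and 516 cells stayed perineurial and 51, 69, 33 and 25 stayed fibroblast-like. A further 15, 27, 8 and 20 cells met the perineurial and 35, 60, 13 and 19 the fibroblast-like definition only after thinning. Thinning only removes detected genes, so it could not turn a perineurial cell into a fibroblast-like one. Pairs of WT libraries shared 5 to 13 cell barcodes (0.0837 to 0.223%).

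Markers of other cells were uneven. The 14 Schwann cell genes summed to 405 to 2040 CPM in perineurial and 399 to 465 CPM in fibroblast-like cells. By library the perineurial sums were 2040.4, 1143, 444 and 405 CPM, so the 2 telogen libraries were the high ones, and in each fibroblast-like sum 6 or 7 of the 14 genes were at 0. The 12 keratinocyte genes summed to 257 to 907 CPM against 40.4 to 69.3 CPM, with *Krt14* at 1, 137, 169 and 205 counts in perineurial and 0 in fibroblast-like cells. *Lgals7* alone gave 978, 758, 972 and 993 of the 1112, 1262, 1634 and 1927 perineurial counts of this sum. In the second anagen library the perineurial sum also held 618 counts of *Acta2*, a smooth muscle actin, and 1499 of *Hbb-bs*, a beta globin, against 5 to 6 and 11 to 14 in the other 3. The 14 endothelial genes summed to 104 to 244 against 69.6 to 167 CPM, the 12 pericyte and smooth muscle genes to 242 to 533 against 231 to 401 CPM, and the 15 immune genes to 24.5 to 249 against 26.9 to 123 CPM, with overlapping ranges. The 7 melanocyte genes summed to 3.60 to 15.1 against 16.7 to 40.4 CPM, and the 5 erythroid genes to 3.78 to 882 against 0 to 5.32 CPM. *Higd1b*, *Tyr* and *Slc45a2* were at 0 in both classes. The part of these cells' RNA in the differences below was not tested beyond a fit without cells that held UMIs of at least 2 genes of another cell type. The types were endothelial, Schwann, pericyte and smooth muscle, immune and keratinocyte. Melanocyte and erythroid genes removed no cell. Values of that fit are given for results named beside such markers, where the gene was still tested. That fit kept 264, 407, 128 and 430 perineurial and 26, 26, 14 and 12 fibroblast-like cells (telogen, then anagen libraries). Deeper cells are left out more easily by this filter, and fibroblast-like cells were the deeper class.

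UMIs were summed per library and class, and 9346 genes with enough counts were tested with the library as a block. Of these, 2280 (24.4%) were higher and 2419 (25.9%) lower in perineurial cells at an adjusted p under 0.05 and over 1.3-fold (edgeR quasi-likelihood test, Benjamini-Hochberg adjustment over all 9346), together 4699 (50.3%). At 2-fold the counts were 1325 (14.2%) and 1357 (14.5%). The median log2 fold change over all tested genes was 0.05, and 4136 genes (44.3%) had no overlap between the 4 perineurial and the 4 fibroblast-like sums. The split depended on the scaling. Trimmed means (TMM) gave 48.5% of calls as higher, whereas scaling to total counts shifted the median log2 fold change up by 0.45, to 0.50, and gave 4442 higher and 1462 lower genes, 75.2% of calls as higher. Between these scalings 87 called genes changed sign, so small folds are read as relative to the scaling. The cells were chosen by their RNA, and every other gene was counted in those same cells. Of cells meeting the fibroblast set, 104 with 2 perineurial genes and 84 meeting both definitions had been left out. Low fibroblast-like counts of perineurial genes, and the large ratios below, can therefore in part be set by this choice.

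**Figure D1:**
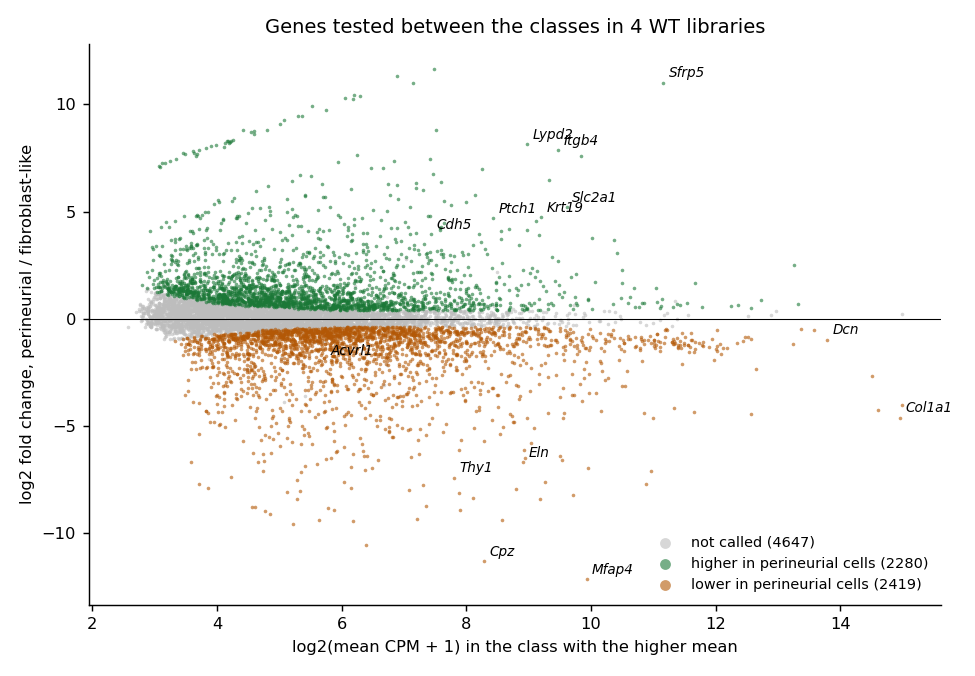
Each point is 1 of 9346 tested genes, with the log2 of the mean CPM plus 1 in the class with the higher mean on the x axis and the fitted log2 fold change of perineurial over fibroblast-like cells on the y axis. Green points (2280) were called higher, orange points (2419) lower and grey points were not called. The curved lines of points at the upper and lower edges are genes with 0 counts in 1 class, whose fitted value is no measure of size. *Sfrp5* and *Mfap4* lie far out in opposite directions at high levels.

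Genes known from perineurial cells and not used to choose them marked the perineurial class. Of 16 such markers 14 were tested, 13 rose, none fell and 1 (*Thbs4*) did not pass the test, with a median log2 fold change of 5.26 against 0.05 over all genes. The study named several of these genes from the same libraries, so the list is not independent evidence of its direction. *Krt19*, a keratin of simple epithelia, stood at 508, 458, 617 and 773 CPM in perineurial cells and 35.9, 14.2, 19.0 and 5.43 CPM in fibroblast-like cells (telogen, then anagen, in this order throughout, with CPM of tested genes on TMM library sizes). All 4 perineurial sums lay above all 4 fibroblast-like ones (log2 fold change 4.75 ± 0.33, SE, edgeR quasi-likelihood test, Benjamini-Hochberg adjusted p = 1.2e-05). *Slc2a1*, the glucose transporter GLUT1 of blood-tissue barriers, stood at 629, 694, 765 and 1024 CPM in perineurial cells and 27.8, 13.3, 19.0 and 19.0 CPM in fibroblast-like cells. The classes did not overlap (log2 fold change 5.2 ± 0.19, SE, edgeR quasi-likelihood test, Benjamini-Hochberg adjusted p = 1.9e-12). *Sfrp5*, a secreted Wnt inhibitor, reached 1716, 2083, 2369.7 and 2967 CPM in perineurial cells. It had 3 counts in all fibroblast-like cells, a ratio of 3081-fold, 95% counting interval 1054 to 14942. This ratio, and every count ratio, counting interval and at-least fold below, uses total UMIs and no TMM factors. On that scale the median log2 fold change was 0.45 higher than with TMM. *Lypd2*, a small GPI-linked protein of the Ly6 family, stood at 379.8, 485, 532 and 608 CPM in perineurial cells and 2.69, 1.77, 0 and 0 CPM in fibroblast-like cells (log2 8.14 ± 0.28), again without overlap. *Slc6a13*, a transporter of GABA and taurine, had 2733 counts in perineurial cells (169, 142, 178 and 220.2 CPM) and 0 in fibroblast-like cells, which makes it at least 240.2-fold higher when 3 counts over the group are taken as the floor.

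Without cells that held genes of other cell types, the difference was log2 6.86 ± 0.50 for *Krt19* and 4.91 ± 0.29 for *Slc2a1*. *Thbs4*, a matrix glycoprotein of the thrombospondin family, had 327 to 372 CPM in perineurial cells and 73.5, 3.54, 642 and 16.3 CPM in fibroblast-like cells. The first anagen library alone had more in fibroblast-like than in perineurial cells, and the estimate had a wide error (log2 2.19 ± 1.37, edgeR adjusted p = 0.28). *Hcn4*, a pacemaker channel, was at 193 ± 60.7 CPM (SD, n = 4 libraries) against 3.39 ± 2.90 CPM, without overlap. *Msln*, mesothelin, had 780 counts against 0, at least 68.6-fold higher.

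*Cdh5*, the VE-cadherin of endothelial junctions and the promoter behind the sort, was also higher in the perineurial class. The sort relied on this promoter, and the study treats the fibroblasts as contaminants without *Cdh5*. Its direction is therefore not independent of how the cells were obtained. It stood at 140.0, 178, 195 and 175 CPM in perineurial cells and 8.97, 14.2, 14.8 and 2.71 CPM in fibroblast-like cells. The lowest perineurial sum was above the highest fibroblast-like sum (log2 fold change 3.94 ± 0.22, SE, edgeR quasi-likelihood test, Benjamini-Hochberg adjusted p = 1.9e-10). Cells with a *Pecam1* UMI had been left out. The 14 endothelial marker genes summed to 104, 126, 244 and 219 CPM in perineurial and 82.8, 76.8, 167 and 69.6 CPM in fibroblast-like cells, with overlapping ranges but a higher perineurial sum in all 4 libraries. Of these genes, *Ecscr* (log2 2.44 ± 0.25, no overlap) and *Emcn* (log2 2.63 ± 0.39, with overlap) rose, and *Plvap* (log2 -2.02 ± 0.25) and *Tek* (log2 -1.79 ± 0.36) fell. *Cdh5* kept its call without cells holding other cells' genes (log2 3.38 ± 0.33). *Acvrl1*, which encodes the BMP9/10 receptor ALK1, went the other way, at 14, 8.42, 15.1 and 19.9 CPM in perineurial cells and 43.9, 59.3, 57.0 and 48.9 CPM in fibroblast-like cells. All 4 perineurial sums were below all 4 fibroblast-like sums (log2 fold change -1.97 ± 0.24, SE, edgeR quasi-likelihood test, Benjamini-Hochberg adjusted p = 2.8e-06).

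Levels per cell were compared at equal depth, after thinning each cell to 1500 UMIs. This left 2236 perineurial and 232 fibroblast-like cells (27 and 3 shallower cells left out). The comparison was 2570 immune cells (a UMI of *Ptprc*, none of *Pecam1*, 152 left out). Their UMIs of these genes can be free RNA or their own expression, which was not told apart. *Krt19* was found in 55.4% (1239 of 2236) of perineurial cells, 95% exact binomial interval 53.3 to 57.5%, in 1.29% (3 of 232) of fibroblast-like and in 0.623% (16 of 2570) of immune cells. The interval of the fibroblast-like share, 0.267 to 3.73%, included the immune share. Median depth before thinning was 9303 to 13698 UMIs in the immune cells of the WT libraries, with those of both classes given above. *Sfrp5* was found in 79.4% (1775 of 2236) of perineurial cells and in 0 of 232 fibroblast-like cells. This allows a share of cells with a UMI at this depth of up to 1.29% (3 of 232), or 1.58% by the 95% exact interval. The immune share was 1.32% (34 of 2570). *Cdh5* was found in 25.7% (575 of 2236) of perineurial, 1.72% (4 of 232) of fibroblast-like and 1.05% (27 of 2570) of immune cells. Most perineurial cells thus had no *Cdh5* UMI at this depth, and 61.8% had one without thinning (fibroblast-like 10.6%, immune 5.03%). *Acvrl1* was found in 2.37% (53 of 2236) of perineurial cells, below the immune share of 5.21% (134 of 2570), and in 7.76% (18 of 232) of fibroblast-like cells. The exact interval of the fibroblast-like share, 4.66 to 12%, included the immune share. These *Acvrl1* shares pool the cells of 4 mice. By library they were 1.375 to 4.20% in perineurial, 4.05 to 12.5% in fibroblast-like and 3.45 to 6% in immune cells. At this depth both classes thus overlapped the immune range. Before thinning, immune cells numbered 779 and 1678 in the telogen and 204 and 61 in the anagen libraries. Without thinning, at unequal depth, the shares were 8.75% of perineurial, 45.5% of fibroblast-like and 29.7% of immune cells. Whether immune cells express the gene themselves was not tested. The study reports detectable Alk1 expression in its perineurial cells. On total UMIs it was at 37.6 to 52.5 CPM in fibroblast-like, 10.0 to 22.3 CPM in perineurial and 34.6 to 53.7 CPM in immune cells. These intervals and limits cover counting error only.

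Within the perineurial class, *Sfrp5* was found in more cells than *Slc6a13* (79.4 against 23.0% at 1500 UMIs). At 1500 UMIs, 62.0% of the 2236 cells held *Sfrp5* alone, 5.64% *Slc6a13* alone, 17.4% both and 15% neither. By library, cells with *Slc6a13* alone made up 4.36, 5.12, 7.25 and 6.65%. At this depth a cell without a UMI may still express the gene. Whether both genes were found together more or less often than their separate shares give was not tested.

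**Figure D2:**
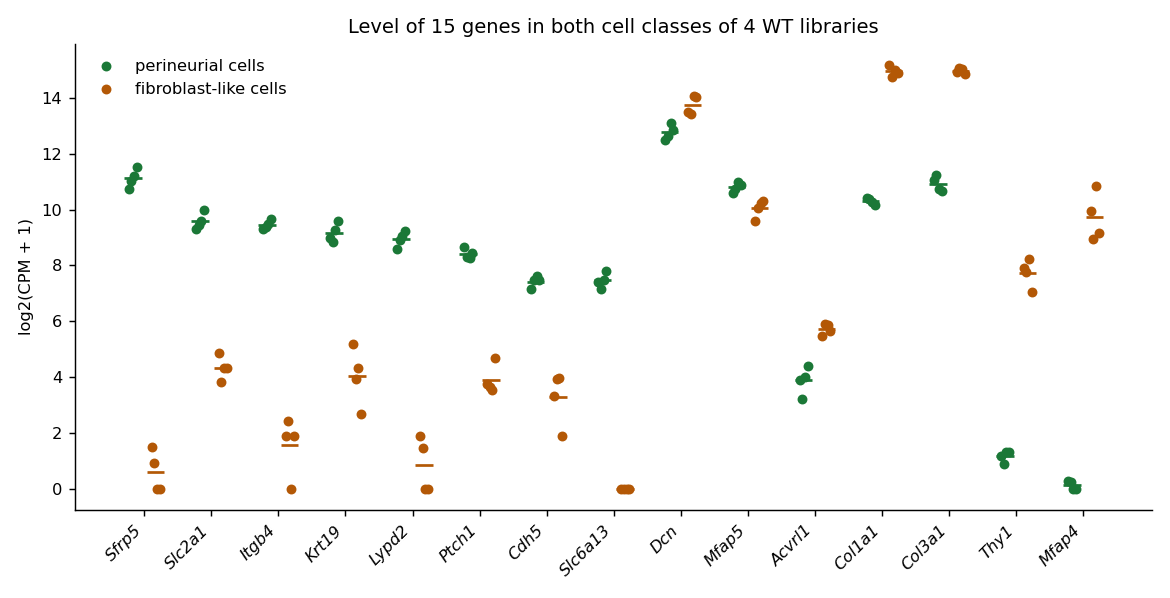
The level of 15 genes is shown as log2 of CPM plus 1 on the y axis, with 1 point for each of the 4 WT libraries and a bar at their mean, green for perineurial and orange for fibroblast-like cells. *Sfrp5* to *Slc6a13* lie higher in every perineurial sum, *Dcn* and *Mfap5* are high in both classes, and *Acvrl1* to *Mfap4* lie lower in every perineurial sum.

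In the tight junction list 9 of 18 tested members rose, 4 fell and 5 did not pass the test (median log2 fold change 0.95). Over all tested genes 24.4% were higher, 25.9% lower and the median was 0.05, which is also the comparison for each list below. The keratinocyte marker sum, mostly *Lgals7* counts, was higher beside them in every library (257 to 907 against 40.4 to 69.3 CPM). Of its 3 tested genes, 1 rose (*Lgals7*), 1 fell (*Krt10*) and 1 (*Sfn*) did not pass the test. *Cldn22*, a claudin, stood at 132, 231, 139.7 and 176 CPM in perineurial cells and had 3 counts in fibroblast-like cells, a ratio of 250.3-fold, 95% counting interval 85.6 to 1214. *Ocln*, occludin, had 597 counts against 1 (157-fold, 95% counting interval 28.1 to 6228), and *Cxadr*, an adhesion protein of epithelial junctions, 1440 against 2 (189.8-fold, 95% counting interval 52.5 to 1569). *F11r*, the junctional adhesion molecule A, followed with 797 against 3 counts (70.0-fold, 95% counting interval 23.9 to 340.4). Without cells holding other cells' genes these kept their calls, at log2 6.36 for *Cldn22*, 8.32 for *Ocln*, 6.04 for *Cxadr* and 4.50 for *F11r*. Their fibroblast-like counts were 3, 1, 2 and 3 before that filter, so these values are weak measures of size. The scaffold genes *Tjp1* (log2 2.96 ± 0.15) and *Cgnl1* (log2 2.87 ± 0.21) rose as well. The 4 that fell were *Cldn10* (1.06, 1.72, 18.7 and 2.64 CPM in perineurial cells and 172, 54.0, 131 and 70.6 CPM in fibroblast-like cells), *Jam2* (log2 -1.74 ± 0.32), *Pard3b* (log2 -1.34 ± 0.23) and *Magi3* (log2 -0.92 ± 0.20), of which *Magi3* was not called with total count scaling (log2 -0.46). Without the second telogen library *Cldn10* lost its call (log2 -4.59 ± 1.10, edgeR adjusted p = 0.079). *Cldn5*, the claudin of endothelial barriers, did not pass the test (8.38 ± 6.75 against 5.70 ± 4.05 CPM).

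Of adherens junction and desmosome genes, 9 of 14 tested members rose (64.3% against 24.4% over all genes) and 3 fell (21.4% against 25.9%). The other 2 did not pass the test, and the median log2 fold change was 0.74. *Jup*, plakoglobin, was at 119 ± 13.1 CPM against 16.1 ± 3.70 CPM (SD, n = 4) and *Nectin2*, an adhesion molecule, at 51.3 ± 5.73 CPM against 15 ± 7.29 CPM, both without overlap. *Ctnna1*, alpha-catenin, rose by log2 1.59 ± 0.13 and *Pkp4*, a plakophilin, by log2 2.02 ± 0.28. *Cdh4*, retinal cadherin, fell from 40.0 ± 12 CPM to 1.02 ± 0.421 CPM. *Nectin3* (log2 -0.72 ± 0.16) and *Nectin1* (log2 -0.92 ± 0.27) fell less, and *Nectin3* lost its call when total counts set the scale (log2 -0.27 ± 0.16). Of the 5 tested connexin and pannexin genes, 2 rose and 3 fell. *Gjb5* rose from 4.48 ± 3.81 CPM to 80.3 ± 25.8 CPM and *Gjb2* had 250 counts against 0, at least 22-fold higher, whereas *Gja1*, the connexin 43 of many tissues, was at 306, 231, 315 and 344 CPM in perineurial cells and 457, 386, 390.4 and 410.0 CPM in fibroblast-like cells (log2 -0.48 ± 0.12). *Gja1* was not called with total count scaling (log2 -0.03 ± 0.12) or without cells holding other cells' genes (log2 -0.30 ± 0.18). *Gjc1* (log2 -1.62 ± 0.24) and the pannexin *Panx1* (log2 -1.09 ± 0.21) also fell.

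Carriers known from tissue barriers were divided. Of 26 tested members, 12 rose (46.2% against 24.4% over all genes) and 10 fell (38.5% against 25.9%). The median log2 fold change was 0.31, and 4 did not pass the test. Beside *Slc2a1* and *Slc6a13*, *Abcb1a*, the P-glycoprotein drug pump, stood at 38.3, 50.2, 67.1 and 65.7 CPM in perineurial cells and 1.79, 0.884, 2.11 and 0 CPM in fibroblast-like cells (log2 fold change 5.23 ± 0.37, SE, edgeR quasi-likelihood test, Benjamini-Hochberg adjusted p = 4.2e-09). *Slc9a3r2*, a scaffold for membrane transporters, was at 91.9 ± 26.0 CPM against 13.1 ± 3.34 CPM. *Slc16a1*, a lactate transporter (log2 1.87 ± 0.17), and *Abcg2*, another drug pump (log2 2.51 ± 0.20), rose as well. Among those that fell, *Slc7a1*, a cationic amino acid transporter, was at 22.4 ± 4.79 CPM against 80.4 ± 29.7 CPM, without overlap. *Slco3a1* (log2 -0.85 ± 0.24) was not called with total count scaling (log2 -0.40 ± 0.23).

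*Cav1*, *Cav2* and *Cavin2*, structural genes of the flask-shaped pits of the plasma membrane called caveolae, were higher in perineurial cells. In the list of caveolar and contractile genes 8 of 19 tested members rose (42.1% against 24.4% over all genes) and 2 fell (10.5% against 25.9%). The other 9 did not pass the test, and the median log2 fold change was 0.34. *Cav1*, caveolin 1, stood at 1370.4, 1512, 1216 and 1371 CPM in perineurial cells and 129, 180.4, 162 and 198 CPM in fibroblast-like cells (log2 fold change 3.06 ± 0.13, SE, edgeR quasi-likelihood test, Benjamini-Hochberg adjusted p = 7e-12). *Cavin2* was at 412 ± 52.0 CPM against 22.5 ± 8.09 CPM and *Cav2* at 295 ± 36.7 CPM against 20.5 ± 9.11 CPM, all without overlap. *Tagln*, an actin-binding protein of smooth muscle, rose (log2 2.73 ± 0.48), beside the *Acta2* counts of the second anagen library given above, and was at 67.0, 82.6, 60.5 and 122 CPM in perineurial cells of the 4 libraries. Without cells holding other cells' genes it was at log2 5.01 ± 0.70. As *Tagln* is on the pericyte list that helped to remove cells, that fit cannot tell where the *Tagln* counts came from. *Myh10* (log2 -2.31 ± 0.24) and *Vim* (log2 -0.96 ± 0.09), the vimentin filament gene, fell.

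Basement membrane genes were divided and their receptors leaned towards the perineurial class. In the basement membrane list 9 of 26 tested members rose (34.6% against 24.4% over all genes) and 8 fell (30.8% against 25.9%). The median log2 fold change was 0.19, and 9 did not pass the test. *Egfl6* stood at 77.8, 92.1, 81.2 and 109 CPM in perineurial cells and 0.897, 4.42, 0 and 5.43 CPM in fibroblast-like cells (log2 5.06 ± 0.32), *Nid2*, nidogen 2, at 172 ± 9.21 CPM against 41.9 ± 12.7 CPM, and *Npnt*, nephronectin, had 369 counts against 3 (32.4-fold, 95% counting interval 11 to 158). The laminin genes differed among themselves, with *Lama5* (170 counts against 3, 14.9-fold, 95% counting interval 5.03 to 73.2), *Lama4* (log2 0.67 ± 0.13) and *Lamb2* (log2 1.08 ± 0.14) higher and *Lama2* (log2 -1.23 ± 0.15) and *Lamb1* (log2 -1.51 ± 0.13) lower. *Sparc*, an abundant collagen-binding glycoprotein, was at 3673, 4142, 3045 and 3915 CPM in perineurial cells and 23911, 20952, 24401 and 23957 CPM in fibroblast-like cells. All perineurial sums were below all fibroblast-like ones (log2 fold change -2.66 ± 0.10, SE, edgeR quasi-likelihood test, Benjamini-Hochberg adjusted p = 3.2e-12). *Col15a1* fell from 428 ± 100.1 CPM to 15.3 ± 5.74 CPM. *Col4a1*, a main chain of type IV collagen, did not pass the test (log2 0.24 ± 0.23, edgeR adjusted p = 0.42).

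Among receptors for laminin and collagen, 14 of 29 tested members rose (48.3% against 24.4% over all genes) and 10 fell (34.5% against 25.9%). The other 5 did not pass the test, and the median log2 fold change was 0.46. *Itga6* and *Itgb4*, whose products pair as the laminin-binding integrin alpha6beta4, were at 943, 1038, 759.8 and 914 CPM in perineurial cells and 5.38, 4.42, 4.22 and 5.43 CPM in fibroblast-like cells and at 635, 668, 717 and 812 CPM in perineurial cells and 2.69, 4.42, 0 and 2.71 CPM in fibroblast-like cells, respectively. Both lay without overlap far above the fibroblast-like level (log2 7.58 ± 0.19 and log2 7.86 ± 0.24, edgeR adjusted p = 1.9e-14 and 2e-13). At 1500 UMIs, *Itga6* was found in 74.8% (1673 of 2236) of perineurial and 0.431% (1 of 232) of fibroblast-like cells, and *Itgb4* in 64.4% (1441 of 2236) and 0 of 232 (up to 1.29%), with immune shares of 1.79 and 1.21%. *Bcam*, a laminin alpha5 receptor, stood at 176 ± 75.9 CPM against 1.5 ± 2.0 CPM and *Itga7* at 129 ± 6.92 CPM against 6.52 ± 4.52 CPM. *Itgb5* (log2 -4.68 ± 0.22) and *Itgav* (log2 -2.37 ± 0.18), which form a vitronectin receptor, and *Cd44* (log2 -3.54 ± 0.16), a hyaluronan receptor, fell. The collagen receptors parted, with *Ddr1* (log2 2.08 ± 0.35) and *Itga1* (log2 3.07 ± 0.22) higher and *Ddr2* (log2 -1.89 ± 0.13) lower.

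Genes of fibrillar collagen and its processing were mostly lower in perineurial cells, and 3 of 35 tested members rose, 31 fell and 1 did not pass the test (median log2 fold change -1.94). *Col1a1*, type I collagen alpha 1, stood at 1371, 1345, 1242 and 1149 CPM in perineurial cells and 36973, 27312, 32867 and 30462 CPM in fibroblast-like cells. The classes did not overlap (log2 fold change -4.64 ± 0.10, SE, edgeR quasi-likelihood test, Benjamini-Hochberg adjusted p = 5.1e-15). *Col14a1*, a fibril-associated collagen, was at 6.81 ± 3.61 CPM against 487 ± 44.9 CPM, and *Pcolce2*, an enhancer of procollagen cleavage, at 1.82 ± 1.57 CPM against 444 ± 34.1 CPM. *Col1a2* (log2 -4.26 ± 0.10), *Col3a1* (log2 -4.05 ± 0.10) and *Lox* (log2 -3.46 ± 0.18), the collagen cross-linking enzyme, fell too. The perineurial level of *Col1a1* was still above that of immune cells (147 CPM on average, 10.1 to 385 over the 4 libraries, scaled to total counts), and *Col1a1* was found in 77.4% (1731 of 2236) of perineurial and 5.10% (131 of 2570) of immune cells at 1500 UMIs. The 3 that rose were *Col6a5* (25.9 ± 9.88 CPM against 4.05 ± 5.84 CPM), *Adamts14*, a procollagen protease (21.8 ± 1.93 CPM against 5.15 ± 2.43 CPM), and *Bmp1* (log2 0.42 ± 0.12). *Bmp1* fell short of the call without the second telogen library (log2 0.37 ± 0.16, edgeR adjusted p = 0.069).

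Small proteoglycans and elastic fibre genes leaned the same way, and 3 of 26 tested members rose, 18 fell and 5 did not pass the test (median log2 fold change -1.64). *Eln*, elastin, stood at 2.75, 3.78, 8.57 and 4.40 CPM in perineurial cells and 531, 412, 637 and 342 CPM in fibroblast-like cells (log2 fold change -6.72 ± 0.20, SE, edgeR quasi-likelihood test, Benjamini-Hochberg adjusted p = 1.4e-13). *Mfap4*, a microfibril protein, had 2 counts in perineurial cells and 2738 in fibroblast-like cells (983, 493, 1842 and 573 CPM), a ratio of 5192-fold, 95% counting interval 1436 to 42895 towards the latter. *Fbln2* (9.26 ± 0.821 CPM against 523 ± 31.3 CPM) and *Mfap2* (8.61 ± 1.52 CPM against 721 ± 84.2 CPM) fell without overlap. *Mfap5*, also a microfibril gene and a fixed fibroblast marker, rose, at 1553, 1691, 2043 and 1894 CPM in perineurial cells and 768, 1076, 1219.7 and 1279 CPM in fibroblast-like cells (log2 fold change 0.75 ± 0.10, SE, edgeR quasi-likelihood test, Benjamini-Hochberg adjusted p = 1.2e-05). At 1500 UMIs it was found in 90.8% (2030 of 2236) of perineurial, 54.7% (127 of 232) of fibroblast-like and 1.67% (43 of 2570) of immune cells. *Omd*, osteomodulin (223 ± 19.0 CPM against 32.6 ± 14.5 CPM), and *Prelp* (254 ± 25.6 CPM against 107 ± 32.5 CPM) rose as well. *Dcn*, decorin, was abundant in both classes, with 5837, 6297, 8781 and 7373 CPM in perineurial cells and 11464, 10909.9, 17259.9 and 16702 CPM in fibroblast-like cells (log2 -0.98 ± 0.09).

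The fibroblast markers as a list, without the genes that chose the cells, gave 17 lower, 1 higher and 3 not passing the test among 21 tested (median log2 fold change -3.67). *Thy1*, a surface glycoprotein of fibroblasts, stood at 1.27, 0.859, 1.51 and 1.47 CPM in perineurial cells and 238, 219, 298 and 133 CPM in fibroblast-like cells (log2 -7.43 ± 0.22), and *Ly6a* at 4.02, 19.9, 15.6 and 22.6 CPM in perineurial cells and 1908, 1957, 2133 and 2006 CPM in fibroblast-like cells (log2 -7.11 ± 0.50). *Pi16* (log2 -6.35 ± 0.27) and *Cd34* (log2 -3.85 ± 0.13) also fell. The 3 without a call, named after their values were seen, were *Pdgfrb* (59.5 ± 7.27 CPM against 76.9 ± 25.7 CPM), *Vit* (96.6 ± 5.46 CPM against 113 ± 44.2 CPM) and *Ogn* (437 ± 70.0 CPM against 441 ± 133 CPM). These had overlapping sums, so the perineurial class held these 3 genes at levels not told apart from those of fibroblast-like cells.

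Matrix proteases and their inhibitors were mostly lower in perineurial cells, and 7 of 34 tested members rose, 23 fell and 4 did not pass the test (median log2 fold change -1.19). *Mmp3*, stromelysin 1, stood at 1.06, 1.03, 2.52 and 2.05 CPM in perineurial cells and 437, 385, 793 and 700.5 CPM in fibroblast-like cells (log2 -8.44 ± 0.18). *Htra1*, a secreted serine protease, was at 2.90 ± 1.72 CPM against 838 ± 159 CPM and *Mmp23* at 0.394 ± 0.373 CPM against 237 ± 12.2 CPM. *Mmp15*, a membrane-bound protease, rose from 2.30 ± 2.73 CPM to 72.7 ± 9.08 CPM, *Adamtsl3* from 20.5 ± 7.80 CPM to 150.1 ± 13.7 CPM, and *Adam15* (log2 1.38 ± 0.16) and *Adamts9* (log2 1.46 ± 0.20) less.

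**Figure D3:**
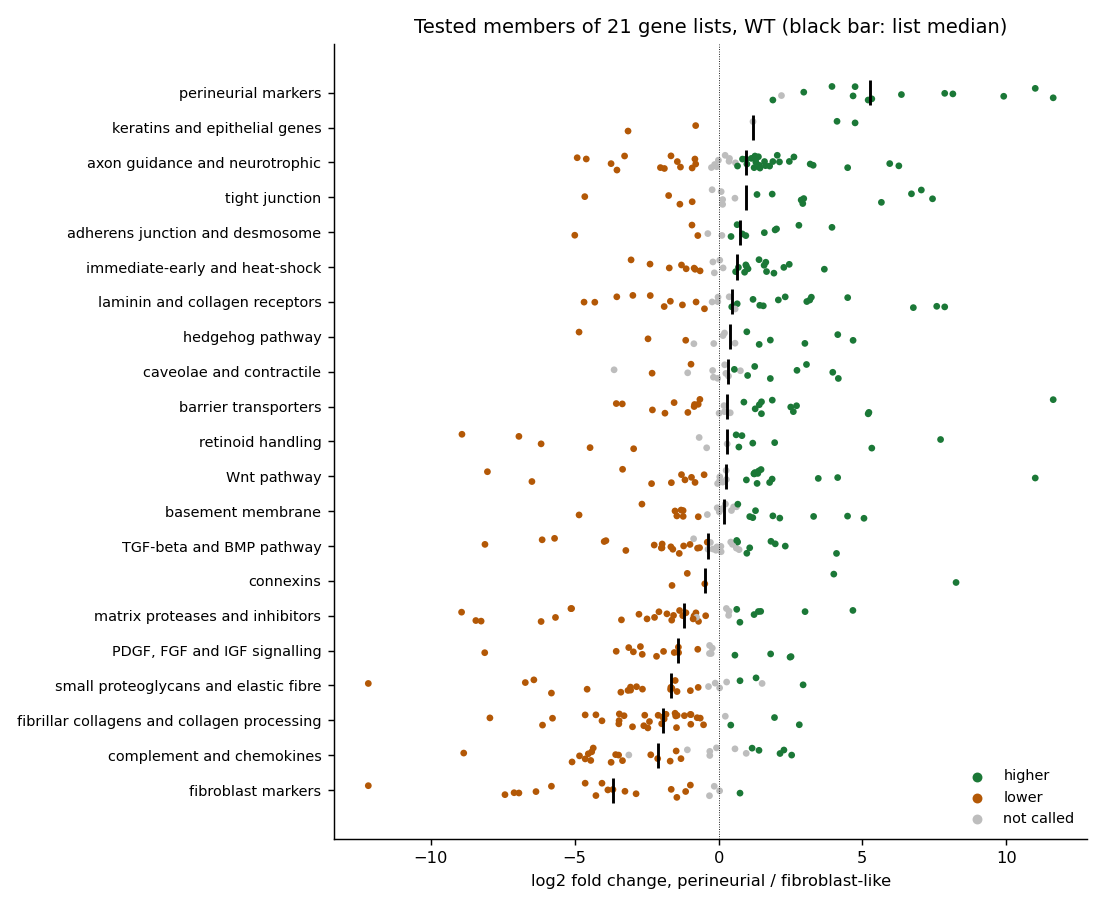
Each point is a tested member of 1 of 21 gene lists, ordered by their medians, with the log2 fold change of perineurial over fibroblast-like cells on the x axis and small vertical offsets added for sight. Green was called higher, orange lower and grey not called, and black bars mark the list medians, from 5.26 for perineurial markers to -3.67 for fibroblast markers.

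The hedgehog pathway carries signals from nerve-associated cells to the perineurium. A ligand released by Schwann cells binds the receptor PTCH1, frees SMO and activates GLI factors, which raise *Ptch1* and *Gli1* themselves. No hedgehog ligand gene had enough counts to be tested. Of 14 tested pathway genes, 6 rose (42.9% against 24.4% over all genes) and 3 fell (21.4% against 25.9%). The median log2 fold change was 0.39, and 5 did not pass the test. *Ptch1* stood at 401, 317, 310.1 and 347 CPM in perineurial cells and 12.6, 11.5, 10.6 and 24.4 CPM in fibroblast-like cells (log2 fold change 4.68 ± 0.19, SE, edgeR quasi-likelihood test, Benjamini-Hochberg adjusted p = 7e-12). *Gli1* was at 83.2 ± 4.92 CPM against 11.3 ± 5.56 CPM and *Foxd1*, a forkhead factor, at 189.6 ± 19.8 CPM against 11.1 ± 4.54 CPM, all without overlap. *Boc*, a coreceptor (log2 1.41 ± 0.18), and *Smo* (log2 0.98 ± 0.20) rose less. *Hhip*, a hedgehog-binding inhibitor, was at 0.423, 2.40, 0 and 0 CPM in perineurial cells and 9.86, 20.3, 59.1 and 51.6 CPM in fibroblast-like cells (log2 -4.85 ± 0.77). *Cdon*, a coreceptor like *Boc*, was lower (log2 -2.45 ± 0.23), and so was *Gli3* (log2 -1.14 ± 0.26).

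The RefSeq promoters (250 bases before to 50 after the start, GRCm38.p6) of the 2 genes that led the hedgehog list are shown because these genes rose together. Of the 6 that rose, 3 were matched in the promoter table. *Ptch1* is on chr13:63565686-63565985, minus strand, and *Foxd1* on chr13:98353995-98354294, plus strand. Capitals mark the GC box GGGCGG on either strand, found 1 time in each and in 35.7% of all 32851 promoters of this length. The GLI motif GACCACCCA, searched on both strands and overlapping no GC box here, was in 0.253% of all promoters and in neither of these windows.
Ptch1: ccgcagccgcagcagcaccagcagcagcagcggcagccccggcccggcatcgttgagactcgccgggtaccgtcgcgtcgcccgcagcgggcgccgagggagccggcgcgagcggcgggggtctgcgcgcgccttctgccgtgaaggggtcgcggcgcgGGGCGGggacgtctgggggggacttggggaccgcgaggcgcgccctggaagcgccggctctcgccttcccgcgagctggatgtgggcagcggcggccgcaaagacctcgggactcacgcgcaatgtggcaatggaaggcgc
Foxd1: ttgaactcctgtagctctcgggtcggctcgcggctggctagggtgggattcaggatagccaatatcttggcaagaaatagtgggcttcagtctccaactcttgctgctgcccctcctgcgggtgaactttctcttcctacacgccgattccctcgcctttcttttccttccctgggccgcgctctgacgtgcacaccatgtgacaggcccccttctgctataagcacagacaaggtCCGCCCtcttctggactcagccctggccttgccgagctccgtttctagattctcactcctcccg

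Wnt pathway genes were divided. Among 29 tested, 13 rose (44.8% against 24.4% over all genes), 10 fell (34.5% against 25.9%) and 6 did not pass the test (median 0.26). The receptors *Fzd7* (80.3 ± 13.2 CPM against 7.18 ± 4.24 CPM) and *Fzd8* (24.3 ± 2.97 CPM against 7.95 ± 2.66 CPM) and the ligand *Wnt10a* (54.7 ± 11.6 CPM against 3.37 ± 3.71 CPM) rose beside the inhibitor *Sfrp5*. The secreted inhibitors *Dkk2*, with 1 count against 93 (353-fold, 95% counting interval 61.8 to 14079 towards fibroblast-like cells), and *Sfrp4* (2.33, 9.96, 4.03 and 1.47 CPM in perineurial cells and 155, 431, 901 and 475 CPM in fibroblast-like cells) fell, as did *Apcdd1* (log2 -3.34 ± 0.23) and the factor *Tcf7l1* (log2 -2.33 ± 0.23). Secreted Sfrp genes thus went in opposite directions, *Sfrp5* up and *Sfrp4* down in perineurial cells.

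In the TGF-beta and BMP pathway 8 of 38 tested members rose (21.1% against 24.4% over all genes) and 18 fell (47.4% against 25.9%). The other 12 did not pass the test, and the median log2 fold change was -0.38. The ligand genes *Bmp3* (50.7 ± 12.1 CPM against 2.23 ± 2.57 CPM) and *Bmp6* (26.1 ± 2.16 CPM against 5.69 ± 1.89 CPM) rose. *Tgfb2* (7.78 ± 3.59 CPM against 116 ± 60.9 CPM) and the antagonist *Fst*, follistatin (3.75 ± 2.12 CPM against 236 ± 100.4 CPM), fell. The ALK1 coreceptor endoglin (*Eng*, log2 -3.22 ± 0.30) fell together with *Acvrl1*. *Id1*, a target of BMP signals, stood at 53.5, 55.3, 160.3 and 77.7 CPM in perineurial cells and 38.6, 8.84, 10.6 and 24.4 CPM in fibroblast-like cells (log2 fold change 1.82 ± 0.56, SE, edgeR quasi-likelihood test, Benjamini-Hochberg adjusted p = 0.0497). Its adjusted p was close to the threshold, and it was not called with at least 500 genes per cell (0.051 by the same test) or without the second telogen library (0.16). *Bambi*, a decoy receptor, rose (log2 1.08 ± 0.21) but had overlapping sums and lost its call without cells holding other cells' genes.

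Axon guidance and neurotrophic genes leaned towards the perineurial class. Of 47 tested members, 26 rose (55.3% against 24.4% over all genes) and 13 fell (27.7% against 25.9%). The median log2 fold change was 0.96, and 8 did not pass the test. *Efnb3*, ephrin B3, stood at 109, 93.8, 109.9 and 111 CPM in perineurial cells and 0, 2.65, 0 and 2.71 CPM in fibroblast-like cells (log2 fold change 6.27 ± 0.37, SE, edgeR quasi-likelihood test, Benjamini-Hochberg adjusted p = 5.1e-10). *Sema3d*, a secreted semaphorin, was at 80.2 ± 6.18 CPM against 9.05 ± 1.6 CPM and *Ntrk3*, the neurotrophin 3 receptor, at 70.7 ± 8.32 CPM against 11.6 ± 5.17 CPM. *Ntn5*, a netrin, had 383 counts against 1 (101-fold, 95% counting interval 18 to 3999). *Slit3* (5.49 ± 0.855 CPM against 167 ± 11.8 CPM) and *Slit2* (1.69 ± 0.64 CPM against 46.5 ± 8.76 CPM), secreted ligands of Robo receptors, fell without overlap, as did the receptors *Robo2* (log2 -3.53 ± 0.39) and *Epha3* (log2 -3.74 ± 0.28).

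Growth factor genes leaned towards fibroblast-like cells. Among those of PDGF, FGF and IGF signalling 4 of 20 tested members rose (20% against 24.4% over all genes) and 12 fell (60% against 25.9%). The other 4 did not pass the test, and the median log2 fold change was -1.39. *Igf1* stood at 64.1, 80.6, 73.6 and 61.0 CPM in perineurial cells and 1029, 1238, 566 and 565 CPM in fibroblast-like cells (log2 -3.56 ± 0.18), and *Fgf10* (3.34 ± 1.41 CPM against 20.4 ± 5.81 CPM) and *Fgf2* (3.57 ± 1.64 CPM against 31.5 ± 14.4 CPM) fell. The IGF binding proteins parted. *Igfbp6* was at 7948, 8728, 10354 and 11834 CPM in perineurial cells and 1084, 1484, 2007 and 2441 CPM in fibroblast-like cells (log2 fold change 2.52 ± 0.11, SE, edgeR quasi-likelihood test, Benjamini-Hochberg adjusted p = 9.2e-12), *Igfbp7* rose less (log2 0.57 ± 0.12) with overlapping sums, and *Igfbp3* fell from 236 ± 78.4 CPM to 0.992 ± 0.75 CPM. *Fgf1* (38.3 ± 6.34 CPM against 7.64 ± 4.53 CPM) and *Pdgfa* (20.5 ± 6.90 CPM against 5.38 ± 4.46 CPM) rose.

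Retinoid handling was split. Of 15 tested members, 7 rose (46.7% against 24.4% over all genes) and 5 fell (33.3% against 25.9%). The median log2 fold change was 0.30, and 3 did not pass the test. *Crabp2*, a cellular retinoic acid binding protein, stood at 214, 168, 254 and 220.2 CPM in perineurial cells and 0.897, 1.77, 14.8 and 13.6 CPM in fibroblast-like cells (log2 fold change 5.33 ± 0.38, SE, edgeR quasi-likelihood test, Benjamini-Hochberg adjusted p = 2.6e-06), whereas its relative *Crabp1* was at 0.278 ± 0.338 CPM against 70.2 ± 83.3 CPM. *Stra6*, a receptor for retinol binding protein, had 181 counts against 0, at least 15.9-fold higher, and *Rdh5* (log2 1.95 ± 0.26) rose. *Cyp26b1*, which degrades retinoic acid, had 1 count against 174 (659.9-fold, 95% counting interval 117 to 26213 towards fibroblast-like cells), and *Rbp4* (1.04 ± 0.528 CPM against 80.4 ± 28.2 CPM) fell. *Rdh10* rose (log2 0.81 ± 0.18) but turned to log2 -0.44 ± 0.35 with cells thinned to 2000 UMIs.

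Complement and chemokine genes were mostly lower in perineurial cells. Of 29 tested members, 5 rose (17.2% against 24.4% over all genes) and 17 fell (58.6% against 25.9%). The other 7 did not pass the test, and the median log2 fold change was -2.12. *Cxcl12*, a chemokine of stromal cells, stood at 9.09, 11.3, 15.1 and 30.5 CPM in perineurial cells and 379, 494, 783 and 508 CPM in fibroblast-like cells (log2 fold change -5.09 ± 0.27, SE, edgeR quasi-likelihood test, Benjamini-Hochberg adjusted p = 6.9e-07). *Cxcl2* was at 81.2 ± 35.2 CPM against 2033 ± 846 CPM, and *Cxcl13* had 1 count against 136 (516-fold, 95% counting interval 91.0 to 20521 towards fibroblast-like cells). *Il33*, an alarmin, was higher, at 494, 491, 476 and 464 CPM in perineurial cells and 74.4, 70.8, 188 and 103 CPM in fibroblast-like cells (log2 2.27 ± 0.24), and so was *Il34* (log2 2.54 ± 0.45). *Il34* lost its call without cells holding other cells' genes (log2 1.37 ± 0.81). Immediate-early and heat-shock genes also differed. Of 26 tested members, 14 rose (53.8% against 24.4% over all genes) and 8 fell (30.8% against 25.9%). The median log2 fold change was 0.64, and 4 did not pass the test. *Nr4a1* (821 ± 174 CPM against 218 ± 56.0 CPM) and *Socs3* (1439 ± 373 CPM against 302 ± 85.0 CPM) rose while *Hspa1a* (68.9 ± 37.3 CPM against 572 ± 255 CPM) and *Dusp1* (243 ± 43.8 CPM against 618 ± 213 CPM) fell.

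Few keratins and epithelial genes of the chosen list had enough counts to be tested. Of 37 listed, 5 were tested, and *Krt19* and *Spint2*, a protease inhibitor (200 counts against 2, 26.4-fold, 95% counting interval 7.20 to 219), rose, *Klf4* (164 ± 51.3 CPM against 1488 ± 651 CPM) and *Krt10* (27.0 ± 5.2 CPM against 48.9 ± 17.2 CPM) fell, the latter without a call under total count scaling (log2 -0.34 ± 0.18), and *Sfn* did not pass the test. *Cdh1* and *Epcam*, which define epithelia, did not pass the low-count filter. *Krt35*, a keratin not among the tested members of the list, was called higher (611 counts against 1, 161-fold, 95% counting interval 28.8 to 6373). Among genes of other cell types, *Lgals7*, a galectin of keratinocytes, rose (207, 130.2, 490.1 and 291 CPM in perineurial cells and 3.59, 7.96, 0 and 0 CPM in fibroblast-like cells), beside the *Krt14* counts given above, and *Prx*, periaxin of Schwann cells, had 382 counts against 2 (50.4-fold, 95% counting interval 13.8 to 417), beside the Schwann cell sums given above. Without cells holding other cells' genes, *Lgals7* kept its call (log2 4.95 ± 0.56) and *Prx* was not tested. As *Lgals7* is on the keratinocyte list that helped to remove cells, that fit cannot tell where the *Lgals7* counts came from. *Pmp22* was 349.6 ± 103 CPM against 465 ± 37.7 CPM and fell (log2 -0.44 ± 0.12), but had the opposite sign with total count scaling (log2 0.01 ± 0.13). *Ndufa4l2*, on the pericyte list, was at 0, 0.172, 5.04 and 0 CPM in perineurial cells and 371, 141, 359 and 231 CPM in fibroblast-like cells, lower in every perineurial sum (log2 -8.39 ± 0.69).

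The 12 largest rises and 12 largest falls by fitted fold change, among genes with a mean of at least 20 CPM in the higher class, included many genes with no count in the other class. *Gatm*, an enzyme of creatine synthesis, had 2067 counts in perineurial cells and 0 in fibroblast-like cells (184, 131, 68.6 and 86.8 CPM in the 4 libraries), at least 182-fold higher. *Spink1*, a trypsin inhibitor, was at 63.7, 66.0, 275 and 159.8 CPM (at least 156-fold higher), and the potassium channels *Kcnj13* (at least 104-fold) and *Kcnj2* (at least 53.3-fold) and the adenosine receptor *Adora1* (at least 53.9-fold) also had 0 counts in fibroblast-like cells. The same held for *Dleu7* (at least 100.1-fold), *Chil1* (at least 94.6-fold), *Mansc4* (at least 97.9-fold) and *Casq2* (at least 67.7-fold), a calcium-binding protein of muscle. *Gatm* was not empty in immune cells (78.9 CPM). In the other direction, *Mmp27* had 0 counts in perineurial cells and 259 in fibroblast-like cells (91.4, 73.4, 114 and 54.3 CPM), at least 327-fold lower. *Gal*, the peptide galanin (at least 159-fold), *Akr1cl* (at least 152-fold), *Creb3l3* (at least 125-fold) and *Il1rl1*, the receptor of IL-33 (at least 113-fold), were also at 0 in perineurial cells. *Cpz*, a carboxypeptidase, had 1 count against 937 (3554-fold, 95% counting interval 636 to 140512 towards fibroblast-like cells), *Akr1c18* 1 against 240 (910.2-fold, 95% counting interval 162 to 36100.2) and *Il1r2*, a decoy receptor of IL-1, 3 against 486 (614-fold, 95% counting interval 209 to 2989.7). *Ifi205*, an interferon-inducible gene, was at 0.515 ± 0.657 CPM against 379 ± 37.8 CPM.

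Whether the difference between classes changed with the hair cycle was tested as an interaction of class and stage. Of 9346 genes, 9 (0.0963%) had a difference that was more positive in anagen and 12 (0.128%) one that was more negative (edgeR adjusted p under 0.05, over 1.3-fold), and 754 (8.07%) had an unadjusted p under 0.05. In simulated data the fit found 2.06% of 97 interactions of log2 1 and 39.2% of 97 of log2 2 among 9034 genes, so interactions of log2 1 were mostly not detectable. Without the library block the same test called 0 genes (641 at an unadjusted p under 0.05), and DESeq2 with the block called 6, all among the 21. Leaving out the first anagen library gave 108 calls and leaving out the second 171, fits in which 1 library stood for anagen and was assumed to vary like the rest. *Thbs1*, thrombospondin 1, stood at 586, 584, 848 and 540.4 CPM in perineurial cells and 1392, 1159.5, 551 and 372 CPM in fibroblast-like cells. Perineurial levels were below the fibroblast-like ones in both telogen libraries and above them in both anagen libraries, a difference of 1.70 ± 0.20 between the log2 fold changes of anagen and telogen (edgeR adjusted p = 0.00013). The fibroblast-like level was high in both telogen libraries, and perineurial levels overlapped between stages. *Ccl8*, a monocyte chemokine, stood at 5.08, 32.8, 0.504 and 1.17 CPM in perineurial cells and 23.3, 46.9, 192 and 144 CPM in fibroblast-like cells, with an interaction of -6.35 ± 0.62 (edgeR adjusted p = 5.4e-05). The second telogen perineurial sum also held the most immune marker counts (*Lyz2* 215 against 2 to 44 in the other 3). *Ccl8* itself was at 1868 CPM on average in immune cells (1416 to 2649, on total UMIs), above both classes. Immune cells numbered 779 and 1678 in the telogen and 204 and 61 in the anagen libraries. Their part in the *Ccl8* interaction was not tested beyond the fit given next. Without cells holding other cells' genes, 6 genes were called, 3 of them among the 21. Of the named ones, *Ccl8* (-5.11 ± 0.79), *Cxcl10* (-5.84 ± 0.58) and *Thbs1* (2.10 ± 0.35) kept their calls, while *Sfrp4*, *Vtn*, *Ly6c1*, *Ifi202b*, *Phlda1* and *Ptx3* lost theirs with the same sign.

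Of the other named genes, *Cxcl10* (-4.06 ± 0.40), *Phlda1* (-1.81 ± 0.23), *Sfrp4* (-2.41 ± 0.41) and *Ptx3* (-2.06 ± 0.35) were lower in perineurial cells in all 4 libraries, with a larger difference in anagen. *Ly6c1* (2.31 ± 0.35), *Ifi202b* (1.63 ± 0.29) and *Cd36* (3.33 ± 0.60) had a difference that was less negative in anagen (mean log2 ratios with 1 CPM added of -7.56, -4.46 and -3.57 in telogen and -5.52, -3.02 and -0.46 in anagen). *Mylk*, the myosin light chain kinase, stood at 0.846, 1.37, 3.53 and 25.2 CPM in perineurial cells and 15.2, 21.2, 4.22 and 13.6 CPM in fibroblast-like cells. Its interaction of 4.59 ± 0.74 (edgeR adjusted p = 0.0057) stood beside the 618 counts of *Acta2* in the perineurial sum of the second anagen library. The log2 ratio with 1 CPM added was -3.14 and -3.23 in telogen and -0.20 and 0.85 in anagen, so both anagen libraries were above both telogen ones. *Mylk* was not among the genes tested without that library or without cells holding other cells' genes. *Vtn*, vitronectin, was higher in perineurial cells and less so in anagen (-1.32 ± 0.24). Only 2 mice stood behind each stage, and stage and age cannot be told apart.

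**Figure D4:**
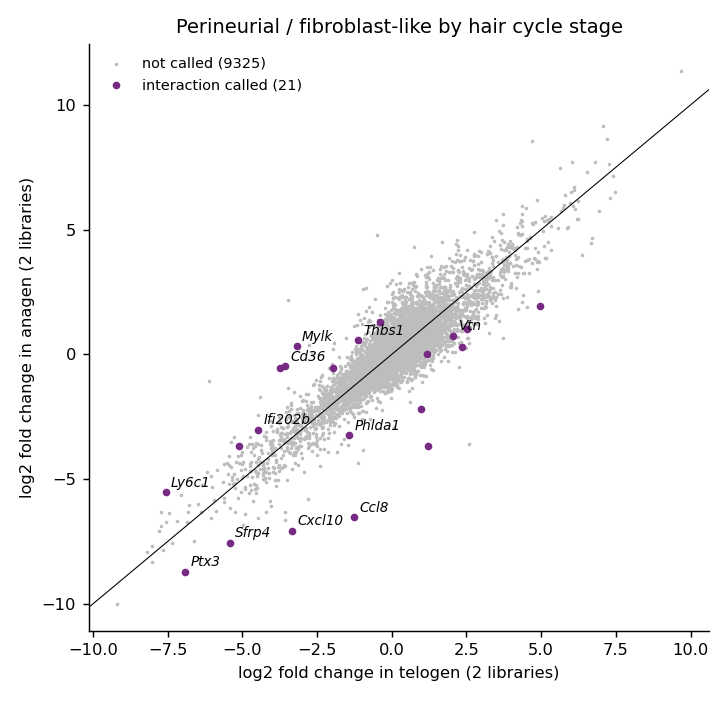
Each point is a tested gene, with the mean log2 ratio (1 CPM added) of perineurial over fibroblast-like cells in the 2 telogen libraries on the x axis and in the 2 anagen libraries on the y axis. The line marks equal values, and the 21 genes with a called interaction are purple. *Ccl8* and *Cxcl10* lie far below the line and *Mylk* and *Thbs1* above it.

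The Alk1 KO libraries offered the same contrast in 2 mice that did not enter the choice of genes. They differ from the WT mice in genotype, strain and age at once, which cannot be told apart, so sizes were not compared. They held 63 and 42 perineurial and 21 and 34 fibroblast-like cells. In fibroblast-like cells *Lum* was at 294 and 199 CPM (WT 1809 to 2503) and *Pdgfra* at 615 and 627 CPM (WT 159 to 196). *Tnfaip6* was at 5680 and 2341 CPM (WT 2304 to 3692). A *Pdgfra* UMI was found in 41.3 and 23.8% of perineurial cells (WT 4.09 to 10.9%). The same definitions thus did not pick cells with like levels of all defining genes. *Acvrl1*, the targeted gene, had 4 and 0 counts in perineurial and 6 and 6 in fibroblast-like cells there, and 101 and 80.1 CPM over all kept cells against 51.4 to 129 CPM in WT. Transcripts were counted from their 3′ end, and whether the counted part lies outside the deleted one is not given in the sources used here, so these counts do not check the label. Of 4314 tested genes, 582 (13.5%) were higher and 647 (15%) lower in perineurial cells (edgeR adjusted p under 0.05, over 1.3-fold), and 1766 had an unadjusted p under 0.05. On counts simulated for these 2 libraries (3732 genes), the fit recovered 0% of 83 changes of log2 1 and 0% of 78 of log2 2. Why the real data gave calls where the simulated data gave none was not tested. Genes without a call here are not read as unchanged.

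Of the 2280 genes higher in WT, 1094 were tested in the KO libraries, 962 of these had the same sign, 458 were called in the same direction and 9 in the opposite one. Of the 2419 lower in WT, 1400 were tested, 1172 had the same sign, 531 were called the same way and 23 the opposite way. *Sfrp5* (log2 11.69 ± 0.51), *Itgb4* (10.76 ± 0.63), *Krt19* (8.23 ± 0.94), *Cdh5* (6.72 ± 0.65), *Slc2a1* (3.30 ± 0.31), *Ptch1* (3.42 ± 0.38) and *Gli1* (4.85 ± 0.71) were higher in perineurial cells (edgeR adjusted p from 1.6e-05 for *Sfrp5* to 0.0014 for *Gli1*). *Col1a1* (-4.30 ± 0.31), *Eln* (-8.81 ± 0.84) and *Fst* (-7.99 ± 1.04) were lower. Both fibroblast-like sums were at 0 for *Sfrp5*, *Itgb4* and *Krt19*, and both perineurial sums were at 0 for *Eln* and *Fst*. The fitted values of these genes are therefore no measure of size. *Col1a1* had 2523 and 1841 CPM in the fibroblast-like and 83.8 and 144 CPM in the perineurial sums of these libraries, and the fibroblast-like WT sums had 27312 to 36973 CPM. *Sparc*, lower in WT, was not called (log2 -0.37 ± 0.18, edgeR adjusted p = 0.16). *Id1*, near the threshold in WT, was called in the opposite direction (log2 -1.91 ± 0.46, edgeR adjusted p = 0.015). *Mfap5* was again higher in perineurial cells (log2 2.38 ± 0.25). A difference between WT and KO in any of these was not tested.

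**Figure D5:**
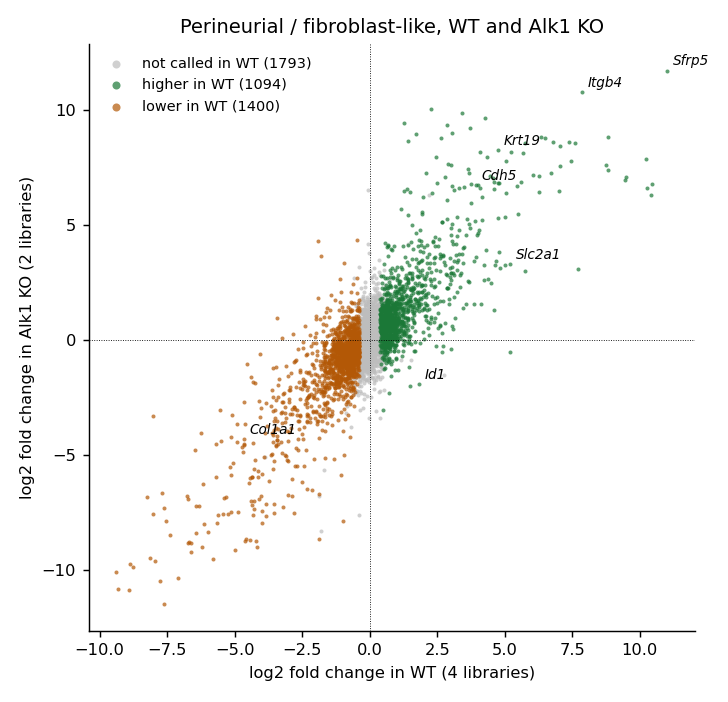
Each point is a gene tested in both sets, with the fitted log2 fold change of perineurial over fibroblast-like cells in the 4 WT libraries on the x axis and in the 2 Alk1 KO libraries on the y axis. Green points (1094) were higher and orange points (1400) lower in WT, and most lie in the same quadrant on both axes, with *Id1* below the horizontal line. Fitted values of genes with no count in a class are no measure of size.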

How the data were processed

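The deposited UMI counts per cell and gene (32285 genes, 6 libraries, 1 per mouse) came from Chromium 3′ libraries. Per the submitters' processing notes, the authors used Cell Ranger 6.0.1, Seurat 4.0 and mm10, and the counts were not normalized. The library was kept as a block because both classes came from the same mouse, so the labels' replicate numbers pair nothing across stages. Cells were called as given above, and UMIs of 32269 genes other than the 16 defining ones were summed per library and class. Gene symbols not in the files (3) were left out. The edgeR (4.0.16, R 4.3.3) quasi-likelihood fit used filterByExpr, TMM factors and a library block, with Benjamini-Hochberg adjustment over all tested genes. CPM of tested genes use TMM library sizes, whereas CPM of defining genes, marker sums and background cells use total UMIs. Count ratios, their counting intervals and at-least folds also use total UMIs. DESeq2 1.42.0 was the alternative tool. On simulated counts for the WT contrast (9036 genes) the fit recovered 73.2% of 97 changes of log2 1 and 97.9% of 94 of log2 2, with 14 false calls. Only these genes differed there, about equally up and down, whereas 50.3% of genes were called in the real data. The simulation therefore does not measure the false calls of the real fit, whose split depended on the scaling. Doublets were not called by a tool, and cells meeting both definitions were left out. Summed totals were 1767873 to 4819410 UMIs (perineurial) and 437022 to 1289212 (fibroblast-like). The members, gene lists and tests were chosen with earlier results of these data known.

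Genes named were *Cdh5*, *Krt19*, *Slc2a1*, *Itgb4* and *Acvrl1*, the 12 largest rises and falls among called genes with at least 20 CPM and the same sign in 4 libraries, up to 4 called genes per list and direction, and the 5 interactions of lowest p per direction. *Sfrp5* and *Slc6a13* cells, uncalled list members and others outside this rule were named after their values were seen. Some genes that the rule names are not reported here. Alternatives covered scaling, low-count filter, fold threshold, tool, cell filters, class definitions, depth, other-cell genes, equal cell numbers, the block and single libraries.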

Additional observations from a re-analysis of the deposited data

Results flagged for a closer look

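In 9 of 174 tested genes (5.17%), 1 of the 4 WT libraries stood far from the other 3 in its log2 ratio of perineurial over fibroblast-like CPM (1 CPM added), where chance flags about 1 in 20. In the second anagen library these were *Cdh5* (5.57), *Thy1* (-5.76), *Pdgfa* (3.91) and *Cxcl2* (-5.05). In the first telogen library they were *Kcnj2* (5.08) and *Lamb1* (-1.25), in the second telogen library *Itga6* (7.58) and *Col1a1* (-4.34), and in the first anagen library *Nectin3* (-1.21). The direction was the same in all 4 libraries for each of these genes.

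The class difference changed between telogen and anagen, by a tested interaction (anagen minus telogen, log2), for 11 named genes. It was more positive in anagen for *Thbs1* (1.70), *Ly6c1* (2.31), *Mylk* (4.59), *Ifi202b* (1.63) and *Cd36* (3.33). It was more negative for *Ccl8* (-6.35), *Cxcl10* (-4.06), *Phlda1* (-1.81), *Sfrp4* (-2.41), *Ptx3* (-2.06) and *Vtn* (-1.32). Each interaction lost its call without the library block.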

How the results depend on the processing

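Of 2840 values of 174 named genes between the classes, 2776 kept their direction and side of the threshold, 62 fell short of it and 2 turned. *Rdh10* was -0.44 with cells thinned to 2000 UMIs and *Pmp22* 0.013 with total count scaling. These genes were named because they were called, mostly with large folds, so keeping a call was partly set by that choice. Dropping the fold threshold used the same fit and could not lose a call. Genes no longer tested under an alternative gave no value. The counts of higher and lower genes were 1325 and 1357 at 2-fold, 1043 and 1084 with thinned cells, 1264 and 1342 without cells holding other cells' genes, 1408 and 1555 with equal cell numbers, and 4442 and 1462 with total count scaling. Thinned cells, the cells left out and equal numbers left 4652, 6104 and 6202 genes to test. Leaving out 1 library gave 1748 to 2376 higher and 2081 to 2435 lower genes. Without the replicate block 2212 were higher and 2324 lower. The 21 interactions became 0 without the block, 6 with DESeq2, 37 with at least 4 perineurial genes, 12 with at least 5 fibroblast genes, 3 with thinned cells, 6 without cells holding other cells' genes, 12 with equal numbers, 105 without a low-count filter, and 15 to 171 without 1 library (108 without the first and 171 without the second anagen library). The cause was not tested. The 1229 calls of the KO libraries became 469 with DESeq2 and 292 with thinned cells (1022 genes tested), 1261 without the block, and leaving out a KO library could not be fitted. Of 39 shares of cells, 36 moved without thinning. Fibroblast-like cells (33 to 85 per WT library) limit the depth.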
